A study of Mus musculus with 8 samples.

Results

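The S100 genes encode small calcium-binding proteins, and 9 of them (S100a1, S100a4, S100a6, S100a8, S100a9, S100a10, S100a11, S100a13 and S100b) were followed here through the cartilage, bone and blood cells of the adult mouse tibia. They were taken by name out of the 31053 genes of a single-cell count matrix and together held 5.60% of its 91463572 UMIs, the unique molecular identifiers that each stand for 1 captured transcript. The cells were freed from tibial trabecular bone with some growth plate, from 3 mice at 8 weeks of age (P56). Every mouse carried a floxed allele beside a wild-type allele of Mmp14 (MMP14 F/+), the COL10A1cre driver, the R26-tdT reporter and the Col1a1-2.3-GFP reporter. COL10A1cre acts in hypertrophic chondrocytes, so Mmp14 was heterozygous in those cells and their descendants in all mice, and no group lacked the driver. The 8 labelled samples form 1 group, P56 tibia, and the matrix holds them as 1 pool of 12564 barcodes, each listed once and with the same suffix, so that no barcode could be assigned to a sample. The pool is therefore 1 sample. No difference between mice could be measured, no test was made, and every interval below is a 95% interval that covers counting error only.

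S100 proteins work as pairs of EF-hand subunits that change shape when calcium binds and then hold on to other proteins. S100a8 and S100a9 join to form calprotectin, which fills the cytoplasm of neutrophils and binds zinc and manganese when it is released. S100b is best known from glia but is also a long-standing marker of chondrocytes, where its gene is a target of the cartilage factor Sox9, and S100a1 is a close relative that can pair with it. S100a4 and S100a6 are found in fibroblasts and motile cells, S100a10 joins annexin A2 at membranes, S100a11 joins annexin A1, and S100a13 helps to export proteins that lack a signal peptide.

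Cells were grouped by raw marker counts among the 8023 barcodes with at least 1000 genes. A gate is the set of barcodes that pass such a count. The Col2a1 gate (at least 10 UMIs of Col2a1, the main cartilage collagen, and at most 1 of Prg4) held 251 cells, and all 11 chondrocyte markers on a list that did not use Col2a1 were present in at least 25% of them. The Col10a1+Ihh gate (at least 5 UMIs together) held 80 cells with 11 of those 11 markers and 5 of 6 hypertrophic markers at that share. The Col2a1 gate had 5 of 6 hypertrophic markers at that share as well. The Col10a1+Ihh gate also had 4 of 6 articular and 6 of 9 osteoblast markers at that share. The Prg4+Cilp gate (at least 2 UMIs together, with at least 1 of Acan) held 200 cells with 5 of 6 articular cartilage markers at that share. The Bglap gate (at least 20 UMIs of osteocalcin) held 56 cells with 9 of 9 osteoblast markers but also 10 of 11 chondrocyte markers at that share. The Dcn and Col3a1 gate (at least 3 UMIs of each) held 172 cells with 4 of 8 fibroblast or tendon markers, 5 of 6 articular markers and 7 of 11 chondrocyte markers at that share. Among blood cells, the Elane+Mpo gate (at least 40 per 10000 UMIs, the azurophil granule genes of early granulocytes) held 361 cells, the Ltf gate (at least 20 per 10000, lactoferrin of the later specific granules) 1724, the Ccr2 gate (at least 1 UMI, a monocyte chemokine receptor) 898 and the Cd79a gate (at least 3 UMIs, a chain of the B cell receptor) 2594. In them 9 of 9 neutrophil precursor markers, 7 of 9 of the same list (Ltf itself included), 7 of 7 monocyte markers and 7 of 7 B cell markers were present in at least 25% of cells.

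The gates overlap. Of 5802 barcodes in any gate, 476 were in more than 1, and all 80 cells of the Col10a1+Ihh gate were also in another gate, 44 of them in Col2a1 and 35 in Prg4+Cilp. Depth differed as well: the median cell held 19387 UMIs in the Col2a1 gate, 24490 in Bglap, 20629 in Elane+Mpo, 7816 in Ltf and 3528 in Cd79a. Levels are therefore given in CPM, the UMIs of a gene per 1000000 UMIs of the cells of a gate added together, and the share of cells with a UMI is also given as the share expected after thinning each cell to 2000 UMIs, which left out 17 shallower cells of the Cd79a gate and none elsewhere. A UMI counts a transcript once whatever its length, and levels of different genes are not ranked against each other. The gate minimums cut through a gradient in some gates. S100b was at 99.7 CPM in the 6 cells just inside the Col2a1 minimum and had 0 UMIs in the 5 cells just outside it, whereas S100a8 was at 58499 in the 127 cells just inside the Ltf minimum and at 53215 in the 78 cells just outside.

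In the GENCODE M21 annotation of GRCm38, the coordinates of mm10, 8 of the 9 genes lie on chromosome 3. S100a1, S100a13, S100a4, S100a6, S100a8 and S100a9 stand close together, from 90511034 to 90695721. S100a11 (chr3:93520488-93526287) and S100a10 (chr3:93555080-93564643) lie further along the same chromosome, and S100b is on chromosome 10 (chr10:76253853-76261159). S100b overlaps Dip2a on the opposite strand and S100a4 overlaps the same-strand model Gm42674, so the assignment of some of their reads is uncertain. RefSeq start regions (GRCm38.p6, 250 bases before to 50 bases from the start) were found for 8 of the 9 members. S100a10 had no entry. The word TATAAA, the core of a TATA box, was searched on both strands and occurred in 3 of the 8 regions, those of S100a4, S100a8 and S100a9, against 13.6% of all 32851 start regions. These are shown first, for members whose lowest and highest gates differed by 78.9-fold for S100a4, 58.4-fold for S100a8 and 66.5-fold for S100a9. S100b, without the word, had the widest range of these summed levels, 107-fold. That order depends on the setting. Under other settings the log2 ratio of the Ltf to the Col2a1 gate reached 9.78 for S100a8 and 9.39 for S100a9, and -8.85 for S100b. The 3 regions are given with TATAAA in capitals and each sequence read 5′ to 3′ on the strand of its gene.
S100a4, chr3:90603520-90603819, plus strand: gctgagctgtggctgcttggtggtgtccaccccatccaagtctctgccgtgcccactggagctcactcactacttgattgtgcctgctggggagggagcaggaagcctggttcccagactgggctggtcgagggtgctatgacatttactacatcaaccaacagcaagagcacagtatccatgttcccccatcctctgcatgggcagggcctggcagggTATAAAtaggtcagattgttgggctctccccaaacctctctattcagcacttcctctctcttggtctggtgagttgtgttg
S100a8, chr3:90668821-90669120, plus strand: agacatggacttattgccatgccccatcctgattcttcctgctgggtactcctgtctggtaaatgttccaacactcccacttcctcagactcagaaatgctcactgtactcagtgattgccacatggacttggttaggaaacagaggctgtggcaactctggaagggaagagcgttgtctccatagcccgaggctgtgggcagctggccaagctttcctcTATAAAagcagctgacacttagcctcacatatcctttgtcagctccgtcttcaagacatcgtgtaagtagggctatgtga
S100a9, chr3:90695672-90695971, minus strand: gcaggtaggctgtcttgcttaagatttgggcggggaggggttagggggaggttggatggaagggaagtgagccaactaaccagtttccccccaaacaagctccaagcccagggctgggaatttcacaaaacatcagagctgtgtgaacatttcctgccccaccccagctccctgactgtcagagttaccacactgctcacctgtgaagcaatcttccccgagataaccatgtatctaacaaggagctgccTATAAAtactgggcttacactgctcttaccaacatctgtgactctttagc
In S100a4 the word began 31 bases before the RefSeq start and in S100a8 30 bases before it, the usual place of a TATA box, whereas in S100a9 it began at the RefSeq start base. GENCODE M21 begins the S100a8 gene further upstream, at 90668978. These 3 regions held 2, 4 and 2 CpG pairs against a median of 7 over all start regions, and those of S100b and S100a6, without the word, held 3 and 6. The S100a13 region is shown because it faces that of S100a1: in RefSeq, S100a13 starts at 90514435 on the plus strand and S100a1 at 90514330 on the minus strand, and the 104 bases between both starts, in capitals, belong to both. GENCODE M21 places the start of S100a1 at 90514392, nearer to S100a13, so that distance depends on the annotation.
S100a13, chr3:90514185-90514484, plus strand: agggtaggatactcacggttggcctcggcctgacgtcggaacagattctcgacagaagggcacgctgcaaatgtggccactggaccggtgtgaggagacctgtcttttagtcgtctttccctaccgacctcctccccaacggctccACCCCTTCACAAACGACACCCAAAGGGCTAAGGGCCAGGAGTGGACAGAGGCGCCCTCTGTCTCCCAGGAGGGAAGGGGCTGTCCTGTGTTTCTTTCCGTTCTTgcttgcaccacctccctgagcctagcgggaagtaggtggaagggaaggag
This region held 14 CpG pairs and no TATAAA. Further words were searched on both strands, namely TTGCNNAA (C/EBP factors), GAGGAA (PU.1) and ACAAAG (SOX factors), which occur in 10.8%, 28.3% and 18.7% of all start regions. TTGCNNAA was found in S100a9, GAGGAA in S100a4, S100a8 and S100a11, and ACAAAG in S100a8. None of the 4 words was found in the regions of S100b, S100a1, S100a13 or S100a6, which says only that those letters are absent from these windows.

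S100b was the member most closely tied to cartilage. Its level was 220 CPM (interval 208 to 232) in the Col2a1 gate, 209 (189 to 230) in Col10a1+Ihh and 234 (217 to 253) in Prg4+Cilp, and these 3 values overlapped within counting error from 1 to the next. It was 89.3 in the Dcn and Col3a1 gate and 58.7 in the Bglap gate, and between 2.19 and 8.79 in the 4 blood gates. The 3 cartilage gates therefore stood apart from all others, and 63.1% of all S100b UMIs in the matrix lay in the Col2a1 gate. A UMI of S100b was found in 218 of 251 Col2a1 cells (86.9%) and in 40 of 2594 Cd79a cells (1.54%), or 35.9% and 0.678% after thinning.

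S100b was also read in cells that gates shared and in cells of 1 gate only. In the 25 Bglap cells that were also in the Col2a1 gate it was 87.2 CPM, and in the 20 Bglap cells in no other gate it was 10.8 (2.95 to 27.7). In the 61 cells of the Dcn and Col3a1 gate alone it was 44.4, and in the 155 cells of the Col2a1 gate alone it was 304 (284 to 325). Outside the 9 gates it was 122 in 31 cells with at least 20 UMIs of Cxcl12, a gene of marrow stromal cells, whereas 0 UMIs were found in 25 cells with at least 20 UMIs of the osteoclast genes Acp5 and Ctsk and in 84 cells with at least 3 UMIs of the macrophage gene C1qa, where 3 UMIs, the limit used here for a count of 0, would be 4.67 and 3.74 CPM.

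S100a1 was also highest in cartilage but was not restricted to it. It was 350 CPM (324 to 377) in the Col10a1+Ihh gate, 277 (264 to 291) in Col2a1 and 223 (206 to 241) in Prg4+Cilp, 3 values that did not overlap. It was 164 in Bglap, 143 in Dcn and Col3a1 and 136 (128 to 144) in Elane+Mpo, and these last 3 values overlapped from 1 to the next. In Ltf, Ccr2 and Cd79a it was 37.8, 49.2 and 18.2. The Elane+Mpo gate thus held S100a1 at a level close to that of the Bglap and the Dcn and Col3a1 gates, and the other blood gates did not. In the Col2a1 gate 214 of 251 cells held both S100a1 and S100b, 18 held only S100a1 and 4 only S100b.

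S100a13 showed the flattest profile of all members, with a 6.44-fold range from 429 CPM (401 to 459) in the Col10a1+Ihh gate to 66.7 (62.8 to 70.7) in Cd79a. The Dcn and Col3a1, Prg4+Cilp, Col2a1 and Bglap gates lay at 280, 277, 239 and 213, of which the upper pair and the lower pair overlapped. Among the 44 cells in both the Col2a1 and Col10a1+Ihh gates it reached 486, against 165 in the cells of the Col2a1 gate alone. Although S100a1 and S100a13 share the start region printed above, their ratio was not constant. S100a1 had 1.16 UMIs (1.08 to 1.25) per UMI of S100a13 in the Col2a1 gate, 0.966 (0.887 to 1.05) in Elane+Mpo, 0.815 in Col10a1+Ihh, 0.804 in Prg4+Cilp and 0.769 in Bglap, but 0.511 in Dcn and Col3a1, 0.365 in Ccr2, 0.322 in Ltf and 0.274 (0.240 to 0.311) in Cd79a. The ratio was thus lower in Cd79a than in each of the 3 cartilage gates, and it differed between both granulocyte gates.

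**Figure D1:**
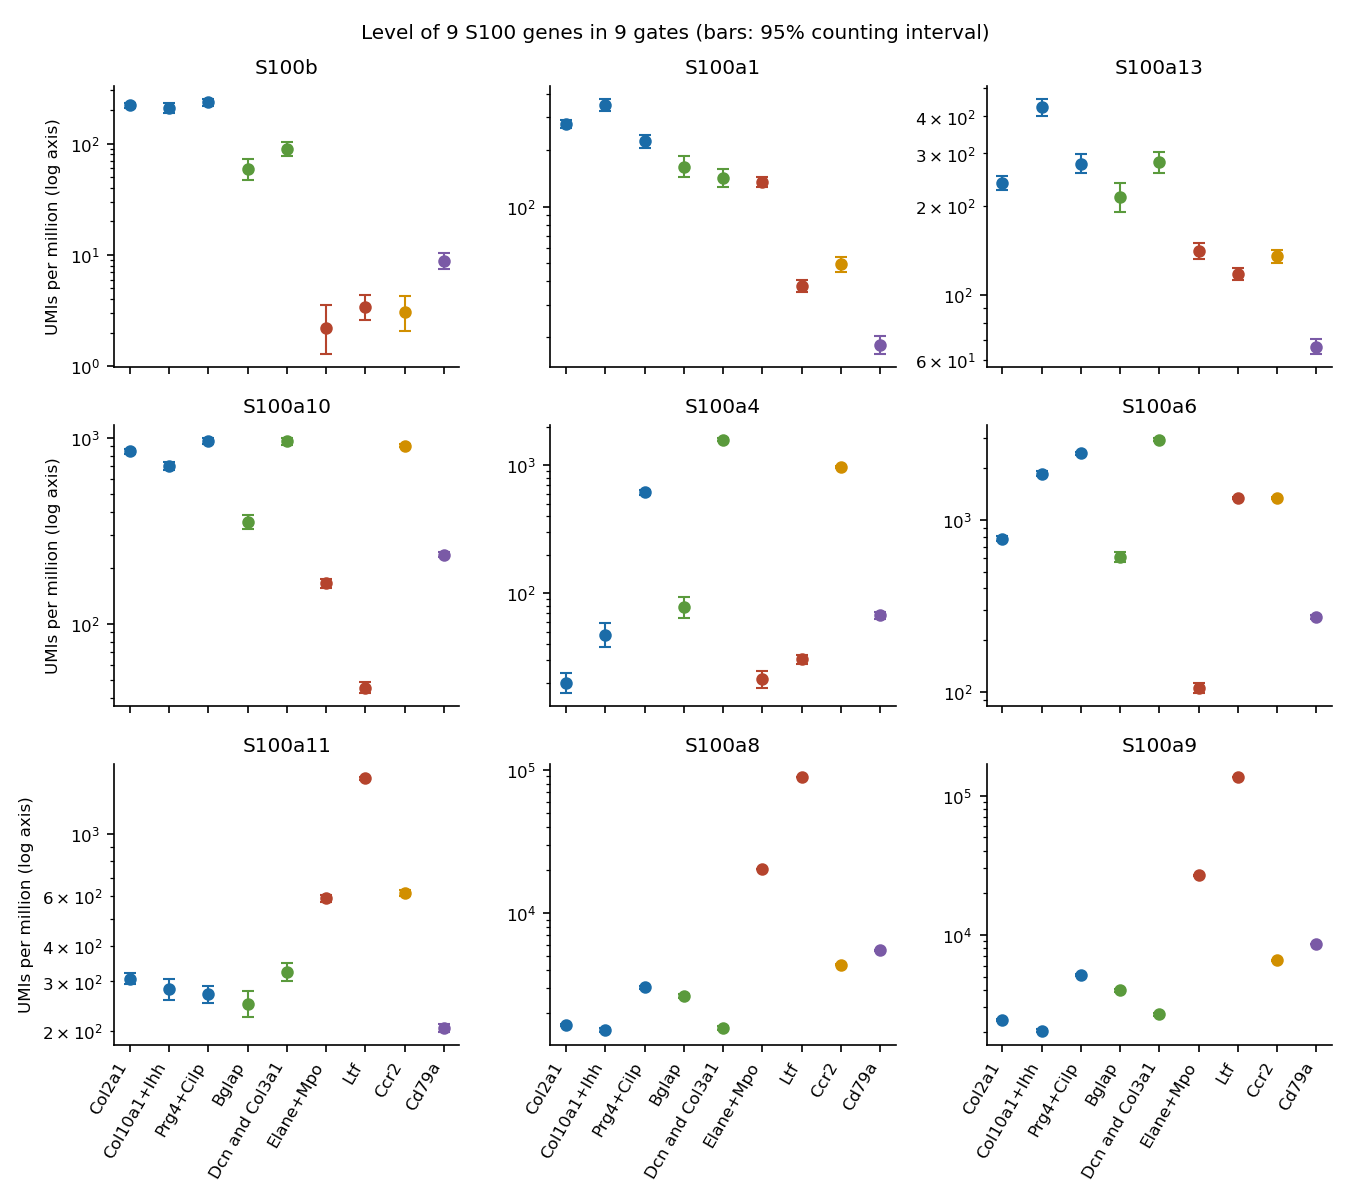
Each panel shows 1 gene, with its level in CPM on a log axis of its own range for the 9 gates (blue, cartilage; green, bone and fibrous; red, granulocyte; orange, Ccr2; purple, Cd79a), as points with 95% counting intervals. S100b sits between 209 and 234 in the cartilage gates and at 8.79 or less in the blood gates, while S100a8 and S100a9 peak in the Ltf gate and S100a4 in the Dcn and Col3a1 gate.

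S100a10, the partner of annexin A2, was highest in the cartilage, Dcn and Col3a1, and Ccr2 gates. It was 961 CPM (925 to 998) in Prg4+Cilp, 957 in Dcn and Col3a1, 907 (889 to 926) in Ccr2, 844 in Col2a1 and 704 in Col10a1+Ihh, of which the upper 3 overlapped from 1 to the next. It was 354 in Bglap, 234 in Cd79a, 165 in Elane+Mpo and 45.3 (42.1 to 48.6) in Ltf. In Elane+Mpo cells in no other gate it was 47.9, and in Ltf cells in no other gate 10.5, so that much of what the granulocyte gates held lay in cells shared with another gate. S100a11 ran the other way between the granulocyte and the skeletal gates. It was 1570 CPM (1552 to 1589) in Ltf, 619 in Ccr2 and 591 in Elane+Mpo, and it lay between 205 and 325 in all other gates, where 5 skeletal gates overlapped from 1 to the next.

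S100a4 divided the skeletal cells. Its level was 1580 CPM (1529 to 1632) in the Dcn and Col3a1 gate, 964 (946 to 983) in Ccr2 and 615 (586 to 645) in Prg4+Cilp, against 20.03 (16.5 to 24.1) in Col2a1, 47.5 in Col10a1+Ihh and 77.6 in Bglap. In Elane+Mpo, Ltf and Cd79a it was 21.4, 30.5 and 67.2. The Dcn and Col3a1 and the Ccr2 gates thus stood at the top, and the Col2a1 gate at the bottom together with Elane+Mpo. Of 172 Dcn and Col3a1 cells, 100 held at least 10 UMIs of S100a4, 30 held 1 to 9 and 42 held none. Of 251 Col2a1 cells, 2 held at least 10 and 208 held none.

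The Prg4+Cilp gate was mixed in this respect. In its 82 cells that were also in the Dcn and Col3a1 gate S100a4 was 1230 CPM (1167 to 1296), in its 62 cells in no other gate 264 (228 to 304), and in the 35 cells also in Col10a1+Ihh 154. S100a4 in the Prg4+Cilp gate thus lay mostly in cells that also carried Dcn and Col3a1. The 61 Dcn and Col3a1 cells in no other gate reached 3630 (3471 to 3794). The 25 cells with Acp5 and Ctsk reached 3801 (3651 to 3954), with S100a4 in 23 of 25. Of all S100a4 UMIs in the matrix, 54.9% lay in the Ccr2 gate.

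S100a6 was found in 42 of 56 Bglap cells, in 88.8% of Col2a1 cells and in at least 97.1% of the cells of the other 3 skeletal gates. It was 2930 CPM (2861 to 3001) in Dcn and Col3a1, 2440 in Prg4+Cilp, 1857 in Col10a1+Ihh, 778 in Col2a1 and 607 in Bglap. Among blood cells it was 1347 in Ltf and 1342 in Ccr2, which overlapped, 272 in Cd79a and 105 (97.8 to 112) in Elane+Mpo. Within cartilage it went from the 155 cells of the Col2a1 gate alone, at 529 (502 to 556), through the 44 cells that were also in Col10a1+Ihh, at 1559, to the 35 cells in both Col10a1+Ihh and Prg4+Cilp, at 2815 (2671 to 2965). S100a4 and S100a6 went together within gates: in the Ccr2 gate 734 of 898 cells held both, with Pearson's r of 0.74 over cells on the log2 scale, and in the Dcn and Col3a1 gate r was 0.63 over 172 cells. In the Prg4+Cilp gate r was lower, at 0.47 over 200 cells, and 88 of those held S100a6 without S100a4. These are descriptions over cells of 1 pool that share library and depth.

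S100a8 and S100a9 were highest in the granulocyte gates. S100a8 was 89008 CPM (88867 to 89148) in Ltf and 20337 in Elane+Mpo, and S100a9 was 135857 and 26642, so that both together made up 22.5% of all UMIs in the Ltf gate. The Ltf gate held 79.7% of all S100a8 UMIs and 78.8% of all S100a9 UMIs. In the other 7 gates the summed S100a8 level lay between 1525 and 5511, and that of S100a9 between 2043 and 8540.

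Those summed levels came from few cells. In the median cell S100a8 and S100a9 together were 24.0% of UMIs in Ltf and 2.39% in Elane+Mpo, but 0.0330% in Col2a1, 0.0289% in Col10a1+Ihh, 0.0429% in Prg4+Cilp, 0.0323% in Bglap, 0.0431% in Dcn and Col3a1, 0.0528% in Ccr2 and 0.0860% in Cd79a. In the Col2a1 gate 1 of 251 cells was above 10%, in Prg4+Cilp 7 of 200 and in Ccr2 32 of 898. The single highest cell held 18.9% of the S100a8 UMIs of the Col2a1 gate and 40.4% of those of the Bglap gate. When cells with a UMI of Ptprc, the common leukocyte antigen, were left out, S100a8 in the Col2a1 gate went from 1663 to 173 CPM (160 to 185) over 206 cells.

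At least 1 UMI of S100a8 was nonetheless found in most cells of every gate, including 76.8% of the Cd79a cells. Of these Cd79a cells, 75 were also in the Ltf gate and 21 in the Elane+Mpo gate. The median cell held 3528 UMIs in the Cd79a gate and 19387 in the Col2a1 gate. After thinning, the share was 52.3% in Cd79a, and 28.7%, 26.9%, 33.6%, 34.0% and 33.1% in the 5 skeletal gates in the order above. The skeletal shares lay below that of the Cd79a gate. Thinning evens the depth but keeps each cell's proportion of S100a8 UMIs, and the cells differed in depth before it. Neither expression of S100a8 by cartilage or bone cells nor its absence is read from these shares. RNA free in the suspension was not measured, and its part was not tested. S100a9 had 2.58 UMIs per UMI of Camp, the gene of the neutrophil peptide cathelicidin, in Ltf. In the 7 gates outside the granulocytes that ratio was between 2.04 (Prg4+Cilp) and 3.31 (Bglap), with 2.61 in Col2a1 and 2.67 in Cd79a. These sums rest on few high cells. Without Ptprc-positive cells the ratio was 4.596 in Col2a1, 4.07 in Col10a1+Ihh, 1.43 in Prg4+Cilp, 10.2 in Bglap and 2.35 in Dcn and Col3a1. In the 19 Col2a1 cells with no UMI of Camp, Ngp, Lcn2 or Ltf, S100a8 was 101 CPM (66.6 to 147), and in the 603 such Cd79a cells it was 327 (306 to 349). It was 144 (108 to 190) in 32 such Prg4+Cilp cells and 233 (183 to 292) in 30 such Dcn and Col3a1 cells. In only 4 such Col10a1+Ihh cells it was 233 (136 to 373), which overlapped the Cd79a interval. Those cells are a subset chosen after seeing the data and are shallower, with a median of 13290 UMIs in the Col2a1 gate.

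**Figure D2:**
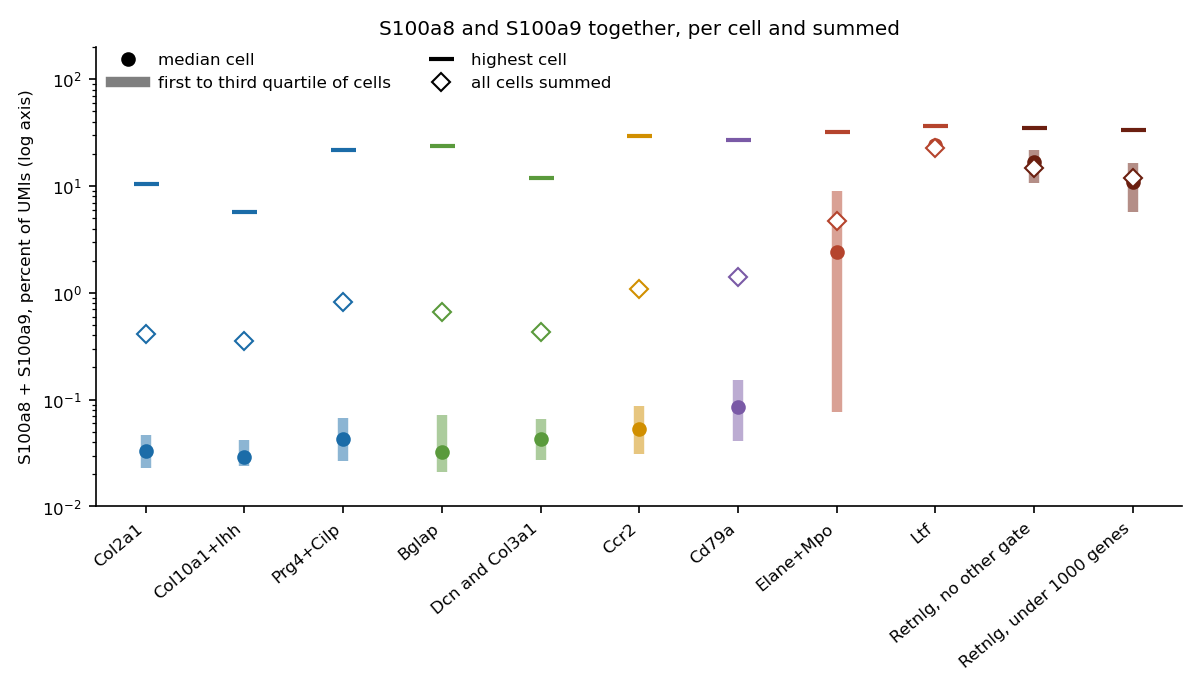
The percent of a cell's UMIs that were S100a8 or S100a9 is shown on a log axis for 11 groups of cells: the filled point is the median cell, the thick bar spans the quartiles, the dash is the highest cell and the open diamond is the value of all cells summed. Outside the granulocyte groups the diamond lies above the upper quartile in every gate, and the median cell is at 0.0860% or less.

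Within the granulocytes the members changed in different directions. Besides the Elane+Mpo and Ltf gates, 416 barcodes with at least 5 UMIs of Retnlg, a gene of mature neutrophils, were in no other gate, and 712 more had fewer than 1000 genes. Over the 207 cells with the most Elane and Mpo (at least 160 per 10000 UMIs), the Ltf gate, and the 2 Retnlg groups, S100a6 was 51.2, 1347, 5483 and 6277 CPM. S100a11 over the same groups was 669, 1570, 2895 and 3484. Both were higher at each step, and no intervals overlapped. The summed erythroid markers rose too, at 5807 CPM in the whole Elane+Mpo gate, 24520 in Ltf and 55374 in the Retnlg cells with fewer than 1000 genes. Their part was not tested. S100a1 ran opposite to S100a6 and S100a11, at 165, 37.8, 15.6 and 7.63, and S100a13 less steeply, at 161, 117, 76.3 and 58.1. For the Ltf gate against the whole Elane+Mpo gate, S100a13 ran from -0.36 to 0.31 on the log2 scale under other settings. The median gene was at -0.36 in that comparison, so no fall of S100a13 is read from that step.

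S100a8 and S100a9 peaked in the Ltf gate and were lower in the Retnlg groups, at 51150.2 and 41551 CPM for S100a8 and 96079.9 and 77567 for S100a9. Their proportion shifted too. S100a8 had 0.888 UMIs (0.879 to 0.897) per UMI of S100a9 in the 207 cells with the most Elane and Mpo, 0.655 (0.654 to 0.656) in the Ltf gate, and 0.532 and 0.536 in the Retnlg groups. In the Elane+Mpo gate the ratio was 0.665 in the 60 cells with 40 to 80 per 10000 and 0.696 in the 94 cells with 80 to 160. S100a8 in the median cell of these 3 bins was 571, 2834 and 13795 CPM, while the level of all cells added together ran the other way, at 25241, 20477 and 18415. In the lower bins most S100a8 therefore lay in a minority of cells. The 60 cells of the lowest bin also held S100a10 at 456 and S100a4 at 69.4, against 20.6 and 5.09 in the highest bin, and 60 of the 361 cells of the whole gate were also in the Ccr2 gate.

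**Figure D3:**
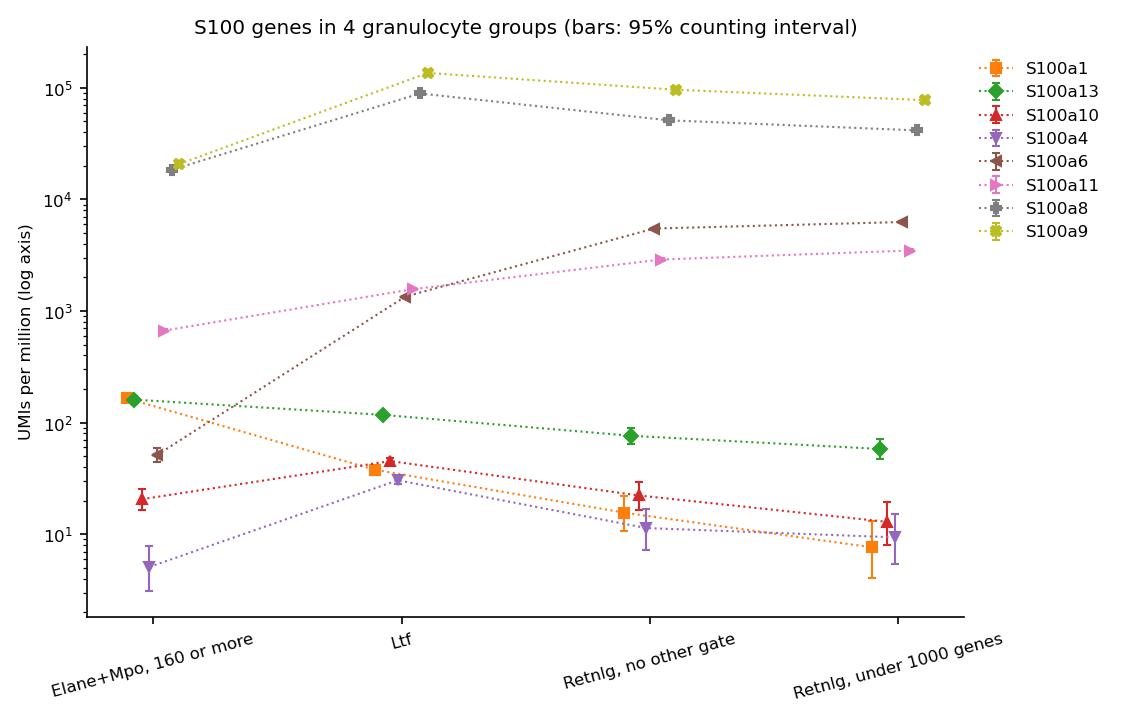
Levels of 8 members in CPM on a log axis are shown in 4 granulocyte groups, with 95% counting intervals and dotted lines that join the values of 1 gene. S100a6 goes from 51.2 to 6277 and S100a1 from 165 to 7.63, while S100a8 and S100a9 are highest in the Ltf gate.

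**Figure D4:**
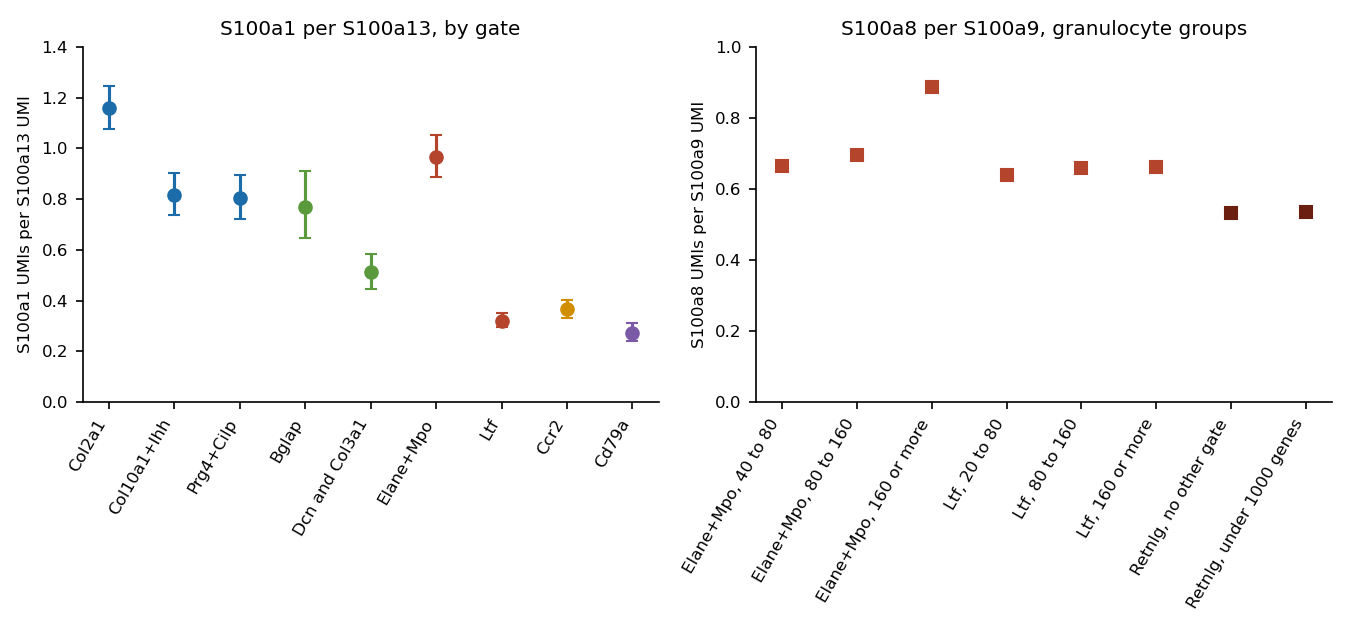
The left panel shows UMIs of S100a1 per UMI of S100a13 in the 9 gates, and the right panel UMIs of S100a8 per UMI of S100a9 in bins of the Elane+Mpo and Ltf gates (per 10000 UMIs) and in the Retnlg groups, with 95% counting intervals that are smaller than most points on the right. The left ratio runs from 1.16 to 0.274 and the right ratio is highest, at 0.888, where Elane and Mpo are most abundant.

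The gates were then set against each other, and members at least 2-fold apart were counted beside the share of all genes with at least 50 UMIs in both sides together. In Ltf against Col2a1, 3 members were higher (S100a8, S100a9 and S100a11) and 4 lower (S100b, S100a10, S100a1 and S100a13), where 21.1% of 10561 genes were higher and 35.7% lower. The log2 ratio was 5.79 (5.77 to 5.81) for S100a9 and -6.01 (-6.41 to -5.64) for S100b. Over the other settings tried, S100a9 ran from 5.60 to 9.39 and S100b from -8.85 to -5.53, a wider spread than the counting intervals. S100a13, at -1.02, sat at the limit, and over the settings it ran from -1.09 to -0.42. In Ltf against Elane+Mpo, 4 were higher (S100a6, S100a9, S100a8 and S100a11) and 2 lower (S100a10 and S100a1), where 14.3% of genes were higher and 30.2% lower. S100a6 differed most, at 3.68 (3.58 to 3.79), and over the settings it ran from 2.94 to 5.11.

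Between skeletal gates fewer members passed 2-fold. In Col10a1+Ihh against Col2a1, which share 44 cells, 2 were higher (S100a6 at 1.26 and S100a4 at 1.25 on the log2 scale) and 0 lower, where 2.65% of genes were higher and 7.04% lower. Over the settings S100a6 ran from 1.24 to 1.43 and S100a4 from 1.12 to 1.34. The Col10a1+Ihh gate also shares 35 cells with Prg4+Cilp, and its summed articular markers were 8213 CPM against 380 in Col2a1. The part of those cells in both values was not tested. In Bglap against Col2a1, 1 was higher (S100a4, 1.95) and 2 lower (S100b, -1.91, and S100a10, -1.25), where 4.36% were higher and 11.1% lower. Over the settings S100a4 ran from 1.17 to 3.06, S100b from -4.81 to -1.62 and S100a10 from -1.94 to -0.83, and the last value, with the gate minimums halved, is under 2-fold. The summed fibroblast or tendon markers, a list that includes Col1a2, were 46572 CPM in Bglap and 8125 in Col2a1. Osteoblast markers were 70738 and 12326, and the part of either in the S100a4 value was not tested. In Dcn and Col3a1 against Col2a1, 2 were higher (S100a4, 6.30, and S100a6, 1.91) and 1 lower (S100b, -1.30), where 11.5% were higher and 7.74% lower. Here S100a4 ran from 4.203 to 7.72, S100a6 from 1.84 to 3.15 and S100b from -2.78 to -1.20 over the settings. In Prg4+Cilp against Col2a1, 3 were higher (S100a4, 4.94, S100a6, 1.65, and S100a9, 1.07) and 0 lower, where 9.35% were higher and 7.13% lower. S100a4 ran from 2.56 to 5.29 over the settings and S100a6 from 1.29 to 1.90. The value for S100a9 moves with the neutrophil precursor markers, whose sum was 4908 CPM in Prg4+Cilp and 2126 in Col2a1, and it was 0.88 without called doublets, 0.29 in cells without a UMI of Camp, Ngp, Lcn2 or Ltf, 2.30 without Ptprc-positive cells and 2.68 in cells of 1 gate only. The part of neutrophil RNA in this value was not tested.

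Monocytes and B cells differed in most members. In Ccr2 against Ltf, 2 were higher (S100a4, 4.98, and S100a10, 4.32) and 3 lower (S100a9, -4.38, S100a8, -4.35, and S100a11, -1.34), where 34.6% of genes were higher and 7.23% lower. The median gene was 0.60 higher on the log2 scale in the Ccr2 gate, and relative to it S100a4 was at 4.38 and S100a11 at -1.95. Over the settings S100a4 ran from 4.35 to 7.26, S100a10 from 3.69 to 6.64, S100a8 from -8.90 to -4.32 and S100a9 from -8.92 to -4.35. In Cd79a against Ccr2, 6 were lower (S100a4, -3.84, S100a6, -2.30, S100a10, -1.95, S100a11, -1.60, S100a1, -1.43, and S100a13, -1.01) and 1 higher (S100b, 1.53), where 14.4% were lower and 16.5% higher. S100a13 ran from -1.47 to -0.86 over the settings and lost its call at the floor of 1600 genes and with totals that left out the 20 highest genes. S100a1 ran from -3.12 to -1.05. S100b was at 8.79 and 3.05 CPM there. In cells of 1 gate only it was 0.793 in Cd79a and 2.03 in Ccr2, a log2 ratio of -1.35, so the direction turned.

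The lineage reporter divided some gates further. WPRE is the viral element behind tdTomato in the R26-tdT transcript, and the study takes a cell with a WPRE value above 14 as derived from hypertrophic chondrocytes. The sources read give no unit for that value, and the limit was used here for cells with more than 14 WPRE UMIs. Such cells were 45 of 80 in Col10a1+Ihh (56.2%, 44.7 to 67.3), 17 of 56 in Bglap, 30 of 200 in Prg4+Cilp and 27 of 251 in Col2a1, and 0 of 361 in Elane+Mpo, for which 3 cells of 361, the limit used here for a count of 0, come to 0.831%. The limit as used here is a count and not a level, and depth differed on either side of it. The median depth was 14328 UMIs above and 11125 below it in Prg4+Cilp, 22388 and 25174 in Col10a1+Ihh, and 29065 and 18350 in Col2a1.

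In the Col10a1+Ihh gate, S100a6 was 2444 CPM in cells above the limit and 1147 in the rest, a log2 ratio of 1.09 (0.99 to 1.20), and the median cell was 2541 and 932. Together with S100a8 it made 2 members higher and 0 lower, where 4.53% of 4106 genes were higher and 4.09% lower. S100a8 was 2135 and 786, but its single highest cell held 50.8% and 75.3% of the UMIs on either side, its median cell was 119 and 109, and its ratio turned from 1.44 to -0.80 without Ptprc-positive cells. The S100a6 difference was thus also seen in the median cell, and the S100a8 difference was carried by few cells. The gate shares 35 cells with Prg4+Cilp, a gate in which S100a6 was 3172 CPM above the limit and 2294 in the rest. The part of that overlap in the S100a6 difference was not tested. S100a6 was at 0.81 and 0.93 when the limit was set at 4 and at 9 UMIs. Marker sums also differed between these cells, at 879 above and 2047 below the limit for fibroblast or tendon, 31704 and 41968 for chondrocyte, 17213 and 11079 for erythroid and 2250 and 1455 for neutrophil precursor markers, and their part was not tested.

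In the Prg4+Cilp gate S100b was 376 and 206 CPM, a log2 ratio of 0.87 (0.61 to 1.12), and S100a1 was 320 and 204. S100a4 was 268 in cells above the limit and 684 in the rest, a ratio of -1.35 (-1.62 to -1.09). There 3 members were lower (S100a8, -4.76, S100a9, -4.72, and S100a4) and 0 higher, where 12.1% of 5763 genes were lower and 2.81% higher. In the Bglap gate 3 were lower (S100a9, -5.07, S100a8, -4.97, and S100a4, -1.58) and 0 higher, where 7.78% of 3187 genes were lower and 3.39% higher. The median cell differed far less. Its S100a8 was 101 CPM above the limit and 123 in the rest in Bglap, and 122 and 160 in Prg4+Cilp. Its S100a9 was 151 and 248 in Bglap, and 193 and 295 in Prg4+Cilp. In the rest of the Bglap gate, 1 cell held 40.9% of the S100a8 UMIs. The summed neutrophil precursor markers moved with S100a8 and S100a9, at 180 above and 5853 below the limit in Prg4+Cilp and at 169 and 3646 in Bglap, and fibroblast or tendon markers moved with S100a4 in Prg4+Cilp, at 788 and 4230, as did osteoblast markers, at 1301 and 6660. In Bglap the fibroblast or tendon markers went the other way, at 57082 and 42567, and the chondrocyte markers were at 12231 and 23864. What part these cells had in the differences was not tested. S100a4 in the Bglap gate rested on 13 UMIs above the limit, of which 1 cell held 76.9%, and its ratio ran from -3.84 to -0.55 over the settings. S100a8 in Prg4+Cilp ran from -5.38 to -0.58 and S100a9 from -5.13 to -0.61. In Bglap S100a8 ran from -5.40 to -2.14 and S100a9 from -5.52 to -1.90.

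**Figure D5:**
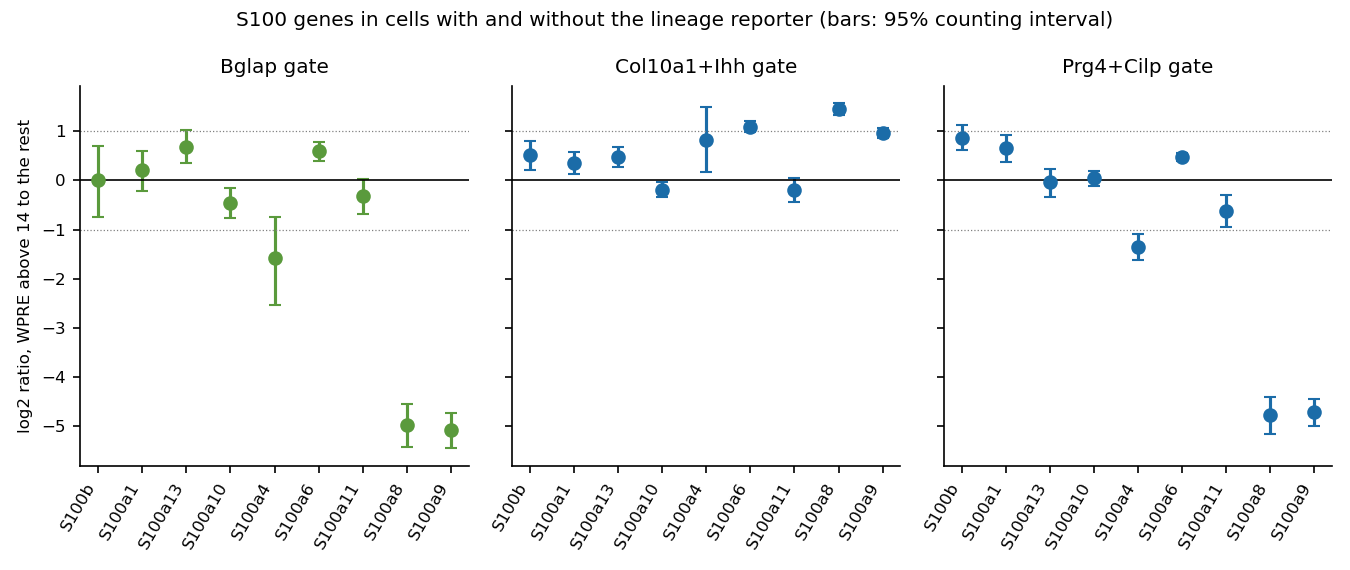
The log2 ratio of cells above 14 WPRE UMIs to the rest is shown for each member in the Bglap, Col10a1+Ihh and Prg4+Cilp gates, with 95% counting intervals and dotted lines at 2-fold. S100a8 and S100a9 lie between -5.07 and -4.72 in the Bglap and Prg4+Cilp gates and above 0 in Col10a1+Ihh, where S100a6 is at 1.09.

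Other genes of the same pathways were read from fixed lists. Of 7 further S100 genes, S100a16 was the 1 with a clear level, between 69.3 and 114 CPM in the 5 skeletal gates and at 6.52 or less in the blood gates, with 219 in 54 cells carrying the endothelial gene Cdh5. S100a3 reached 17.6 in the Col2a1 gate, and S100z had 0 UMIs in all 9 gates. Against Col2a1, 2 of 2 such genes tested were lower in Ltf, where 35.7% of all genes were.

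Of the binding partners inside cells, 3 of 11 tested were higher and 5 lower in Ltf against Col2a1, where 21.1% and 35.7% of all genes were. Anxa1, which pairs with S100a11, was 2457 CPM in Ltf and 135 in Col2a1. It did not follow S100a11 throughout, at 562 in the Retnlg cells with fewer than 1000 genes, 323 in Prg4+Cilp and 394 in Dcn and Col3a1. Anxa2, which pairs with S100a10, was 290 and 494, a smaller difference than that of S100a10 at 45.3 and 844. Ahnak, a scaffold that binds this complex, was 36.7 and 458. In Cd79a against Ccr2, 6 of 10 partners tested were lower and 0 higher, where 14.4% and 16.5% of all genes were, and Anxa2 was at 66.6 and 480. In Ltf against Elane+Mpo 5 of 10 were higher and 1 lower, where 14.3% and 30.2% of all genes were. The lower one was Cacybp, which binds S100a6, at 42.1 and 221.

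Of the receptors for released S100 proteins, 3 of 5 tested were higher (Cd36, Tlr4 and Alcam) and 1 lower in Ltf against Col2a1, where 21.1% and 35.7% of all genes were. The lower one, Bsg, which binds S100a9, lay between 384 and 522 CPM in the skeletal gates and at 76.0 in Ltf. Tlr4 did not exceed 10.9 and Ager did not exceed 2.14 in any of the 9 gates. Among transcription factors, Sox9 was 1155 in Col2a1, 1497 in Col10a1+Ihh and 1550 in Prg4+Cilp, with 602 in Dcn and Col3a1 and 390 in Bglap. In the 31 Cxcl12 cells, where S100b was 122, Sox9 was 9.11, from 3 UMIs. Cebpe, needed for specific granules, was 251 in Elane+Mpo and 268 in Ltf, a log2 ratio of 0.10 (0.02 to 0.18), while S100a8 differed by 2.13 between the same gates.

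Each member was also matched to the genes with the most similar profile over the 9 gates, by Pearson's r of log2(CPM + 10) among 11916 genes with at least 100 UMIs. S100a9 was the nearest gene to S100a8 (r = 0.998), followed by Wfdc21 and Camp at 0.998 and 0.992. Nearest to S100b were Fam83g, Ppp1r1b and Fam20b, at 0.998, 0.996 and 0.995. Nearest to S100a1 were Pdcl3, Pigp and Fdps, at 0.967, 0.964 and 0.963, and Pdcl3 was also nearest to S100a13, at 0.950. Nearest to S100a4 were Sfxn3, 4933433G15Rik and Ece1, at 0.983, 0.963 and 0.948. Nearest to S100a6 were Pdlim5, Stat3 and Reep3, at 0.949, 0.930 and 0.923. Nearest to S100a10 were Dnajc10, Sumf1 and Slc30a1, at 0.968, 0.963 and 0.963, and nearest to S100a11 were Nod1, Galc and Sqor, at 0.979, 0.968 and 0.968. Among the members themselves S100a1 was closest to S100a13 (r = 0.92) and then to S100b (0.82). With 9 points, some of which share cells, these values describe the gates and no more.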

How the data were processed

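The authors made single-cell libraries from 1 pooled suspension and deposited a matrix of UMI counts per gene and barcode, made with Cell Ranger 3.1.0 on mm10 together with sequences for GFP, tdTomato and WPRE. Their submitters' processing notes also name Seurat 3. Which annotation release gave the gene models is not stated in the sources read. The counts were used as deposited, without further normalization. Barcodes ranged from 500 to 103543 UMIs with a median of 5417, and 4472 reach the floor of 1600 genes used in the study, against 8023 at the floor of 1000 used here. The 8 labelled samples form 1 group and could not be told apart among the barcodes.

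Levels are summed UMIs per 1000000 with exact Poisson intervals. Shares carry exact Clopper-Pearson intervals, ratios exact conditional intervals, all at 95%. A ratio was called at 2-fold among genes with at least 50 UMIs in both gates together. The members, gates and gene lists were chosen with earlier results of these data known. Named genes were the 9 members, the 3 genes most similar to each member over the 9 gates, and lists of other S100 genes, binding partners, receptors and transcription factors. No model was fitted, since there is 1 sample.

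Scrublet (in scanpy 1.11.5, expected rate 6%) called 411 of 12564 barcodes (3.27%) as doublets. They were kept, and left out as an alternative. Other alternatives changed the gene floor, the mitochondrial limit, gate overlap, Ptprc, the weight of cells, the totals, the scaling, the gate minimums, the highest cell and the WPRE limit. Of the gene IDs, 30934 of 31053 matched GENCODE M21. The intervals were tested on simulated data. Work used python 3.11.15, numpy 2.4.6, scipy 1.17.1, pandas 2.3.3 and matplotlib 3.10.9.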

Additional observations from a re-analysis of the deposited data

How the results depend on the processing

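Of 44 member ratios past 2-fold, 34 stayed past it in the same direction under each of 16 other settings that could give them, 15 of them planned. Counts of members past 2-fold stayed within 1.5 times in 135 of 145 comparisons with a setting. With barcodes of 1 gate only the count was 6 for Bglap against Col2a1 (3 before) and 5 for Dcn and Col3a1 against Col2a1 (3 before), and S100b in Cd79a against Ccr2 turned to -1.35. Without Ptprc-positive cells the counts were 5 and 5 for the same skeletal comparisons and 1 for the WPRE comparison in Col10a1+Ihh (2 before), where S100a8 turned to -0.80. With each cell weighing the same, Bglap against Col2a1 had 5. With WPRE above 4 the count was 5 in Bglap and 1 in Prg4+Cilp (3 before in each), with WPRE above 9 it was 1 in Col10a1+Ihh, and with WPRE above 19 S100a8 in Col10a1+Ihh turned to -0.51. A setting chosen after seeing the data, without cells holding a Camp, Ngp, Lcn2 or Ltf UMI, gave 5 for Dcn and Col3a1 against Col2a1. It could not be run for Bglap or Col10a1+Ihh against Col2a1 or for the WPRE comparisons, where too few cells remained, and barcodes of 1 gate only gave no cells for Col10a1+Ihh and no value for S100b in the Bglap WPRE comparison. The causes were not tested. No paired analysis was possible because the 8 samples are 1 pool without sample marks, and no replicate could be left out. Depth limits the shares most in the Cd79a gate, and the Bglap gate rests on 56 cells.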

Other observations

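Cells carrying the endothelial gene Cdh5 (54 cells) held S100a6 at 1006 CPM (920 to 1097) and S100a13 at 317 (270 to 370), with S100a1 at 31.5. In the 31 cells with at least 20 UMIs of Cxcl12, S100a6 was at 942 (840 to 1053), S100a11 at 592 and S100a13 at 264. The 84 cells with at least 3 UMIs of the macrophage gene C1qa held S100a4 at 243 and S100a6 at 298, against 964 and 1342 in the Ccr2 gate. The 25 cells with Acp5 and Ctsk held S100a10 at 1146 (1065 to 1232) and S100a1 at 137, beside the S100a4 level given above. Each of these groups is small and comes from the same pool, and no comparison among them was tested.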
